A study of Homo sapiens with 2 samples.

Results

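The miR-99/100 and miR-125 families were followed in Huh7 cells, an established human hepatocellular carcinoma line, with and without Y27632, a small-molecule kinase inhibitor. Their 5 measured members were miR-99a-5p, miR-100-5p, miR-99b-5p, miR-125a-5p and miR-125b-5p. They were chosen by their mature-sequence accessions, which pick out 5 of the 1001 rows of the array table. Both groups were maintained in the same serum-supplemented Dulbecco's medium. The control group was 1 array of Huh7 cells, marked as control by its title, which names no vehicle and no time of harvest. Treatment text with the dose and time stands on both samples, so the groups rest on the titles. The treated group was 1 array of Huh7 cells given 10 µM Y27632 for 12 hours. A single cell line was used, so the values describe that line and not liver tissue. Total RNA was labelled with the dye Hy5 and read on single-colour arrays, and each value below is an intensity on a linear scale without a replicate error.

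MicroRNAs are short RNAs that pair with messenger RNAs mainly through the seed, the bases near their 5′ end, and lower the output of those messages. The miR-125 family is the vertebrate counterpart of lin-4, the first miRNA described, in the worm Caenorhabditis elegans. MiR-100 belongs to one of the oldest miRNA families of animals, and mTOR is a known target of miR-99a and miR-100 in human cells. In human and other animals these genes lie next to let-7 genes, whose product promotes differentiation. Levels of miR-99a and miR-125b have been described as lower in hepatocellular carcinoma than in liver.

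The mature sequences show which members the array has to tell apart. All 5 names were found in RefSeq's miRNA table (GRCh38.p14), and capitals mark bases 2 to 8, the seed.
miR-99a-5p: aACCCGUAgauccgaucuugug
miR-100-5p: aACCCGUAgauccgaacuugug
miR-99b-5p: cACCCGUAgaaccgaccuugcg
miR-125a-5p: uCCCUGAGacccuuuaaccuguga
miR-125b-5p: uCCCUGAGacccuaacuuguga

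The 5 members carried 2 seeds. The seed ACCCGUA was shared by miR-99a-5p, miR-100-5p and miR-99b-5p, and by 0 other mature names among the 2370 of the RefSeq table (0.127% of names hold it). The seed CCCUGAG was shared by miR-125a-5p and miR-125b-5p, and by 1 further name, miR-4319 (3 names, 0.127%). Outside the seed the members of a family were also close. Counting from 1 at the 5′ end, miR-99a-5p and miR-100-5p differed at a single base (U16A) and were the same at the other 21 of 22. MiR-99b-5p differed from miR-99a-5p at 4 positions (A1C, U11A, U16C and U21C). MiR-125a-5p is 24 bases long against 22 for miR-125b-5p. With 2 U bases of miR-125a-5p left out at positions 13 and 14, these sequences differed only by C19U. G and C made up 14 of 22 bases in miR-99b-5p, against 11 of 22 in miR-99a-5p, miR-100-5p and miR-125b-5p and 12 of 24 in miR-125a-5p. The labels do not give the probe sequences, and how far a probe separates miR-99a-5p from miR-100-5p was not tested.

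The 5 members come from 3 genomic clusters, each with a miR-99/100 gene, a let-7 gene and a miR-125 gene in that order along their strand. On chromosome 21, MIR99A lies on the plus strand at chr21:16539089-16539169 (GRCh38.p14). It is followed by MIRLET7C at chr21:16539828-16539911 and MIR125B2 at chr21:16590237-16590325. All 3 lie within the span of the long non-coding host gene MIR99AHG, and the cluster covers 51.2 kb. On chromosome 11, MIR100 lies on the minus strand at chr11:122152229-122152308. MIRLET7A2 at chr11:122146522-122146593 and MIR125B1 at chr11:122099757-122099844 follow it downstream, within the span of MIR100HG, over 52.6 kb. The chromosome 19 cluster is far more compact, at 0.728 kb. It holds MIR99B at chr19:51692612-51692681, MIRLET7E at chr19:51692786-51692864 and MIR125A at chr19:51693254-51693339 on the plus strand. These 3 hairpins lie within the spans of SPACA6 and SPACA6-AS1. The gene table used gives spans but no exons, so exonic or intronic position was not assigned.

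**Figure D1:**
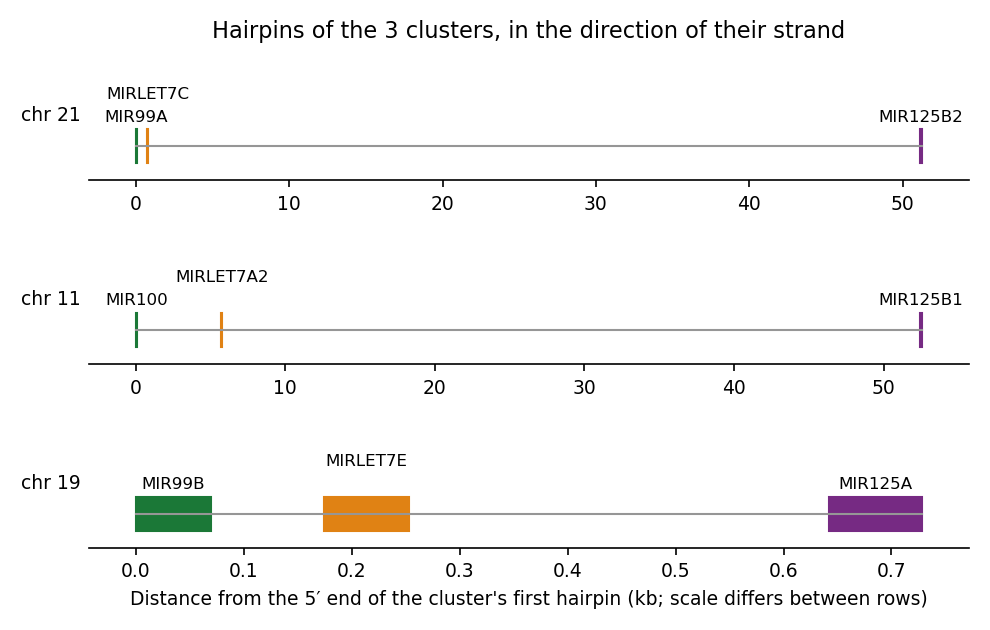
Layout of the 3 clusters, with distance in kb from the 5′ end of the first hairpin on the x axis, 1 row per chromosome and a different scale in each. Boxes are hairpins (green, miR-99/100 genes; orange, let-7 genes; purple, miR-125 genes), and the chromosome 19 cluster spans 0.728 kb against 51.2 and 52.6 kb for the others.

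One member cannot be assigned to a cluster. MiR-125b-5p is made from both MIR125B1 on chromosome 11 and MIR125B2 on chromosome 21, with the same 22 bases at chr11:122099809-122099830 and chr21:16590253-16590274. A probe for it reads the sum of both genes. The opposite arms of these hairpins do differ in sequence, and are shown because they alone separate the genes at the level of mature RNA.
miR-125b-1-3p: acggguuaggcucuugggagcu
miR-125b-2-3p: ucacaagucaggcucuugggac

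The deposited table does not pair accessions with names for these arms or for the let-7 miRNAs of the clusters, so their rows are not reported. The remaining members each map to 1 gene: miR-99a-5p to chromosome 21, miR-100-5p to chromosome 11, and miR-99b-5p and miR-125a-5p to chromosome 19.

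All 5 members were listed on both arrays and were well above the median listed intensity, which was 6.0 on the control array (619 probes listed) and 6.1 on the Y27632 array (614 listed). Both arrays listed 519 probes. All 5 were among the brightest 25% of these, a set of 130 probes with a geometric mean intensity of at least 26.2. Intensities of different probes depend on each probe's own binding and labelling, so the values below place each probe on the array and do not rank the miRNAs by abundance.

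Among the miR-99/100 members, the seed family linked to mTOR, intensities differed little between the arrays, with ratios from 0.948 to 1.05. The probe for miR-99a-5p (MIMAT0000097) read 148.1 in control and 143.4 in treated cells, giving a log2 ratio (Y27632 over control) of −0.05. The probe for miR-100-5p (MIMAT0000098) read 79.5 and 75.4, a log2 ratio of −0.08. Both were slightly dimmer on the treated array. The probe for miR-99b-5p (MIMAT0000689) was the one member that was brighter there, at 67.1 in control and 70.4 in treated cells, for a log2 ratio of 0.07. Their ranks by brightness, with 1 as the brightest, changed little, from 49 to 50 for miR-99a-5p, from 73 to 75 for miR-100-5p and from 80 to 79 for miR-99b-5p.

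The miR-125 members, the lin-4 counterparts, were both dimmer on the treated array, by unequal amounts. The probe for miR-125a-5p (MIMAT0000443) read 77.9 in control and 73.2 in treated cells, for a log2 ratio of −0.09, and moved from rank 74 to rank 77. The probe for miR-125b-5p (MIMAT0000423) read 127.3 and 103.9, a ratio of 0.816 and a log2 ratio of −0.29. This was the largest change among the 5, and its rank went from 56 to 59. With 1 array per condition no test was possible for any of these differences.

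**Figure D2:**
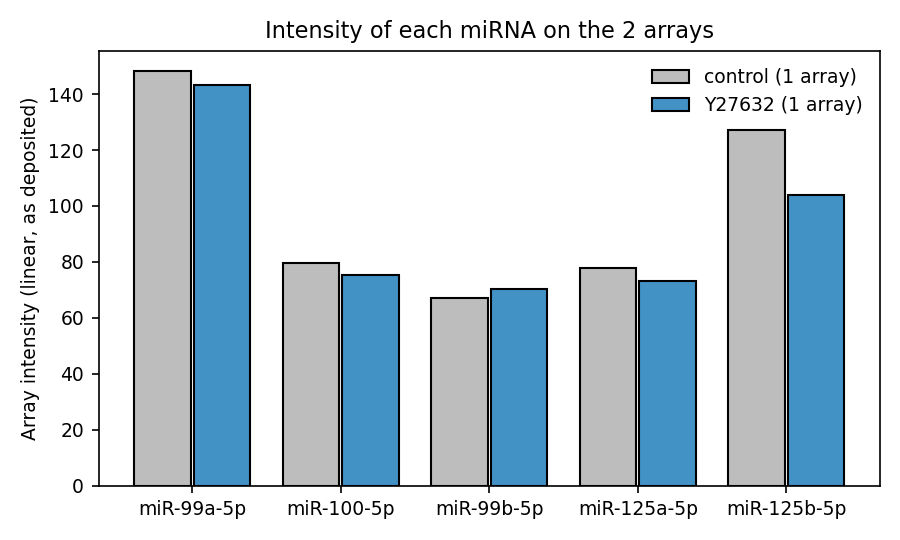
Array intensity (linear scale, y axis) of each of the 5 miRNAs on the control array (grey) and the Y27632 array (blue), 1 array each and so without error bars. The pair of bars for miR-125b-5p differs most (127.3 and 103.9), miR-99b-5p is the one pair with the treated bar higher (67.1 and 70.4), and heights of different miRNAs are not comparable as abundance.

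No member reached a 1.5-fold difference in either direction (0 of 5). Among the 519 probes listed on both arrays, 8.86% were higher and 5.39% lower after Y27632 by this limit, and 2.50% and 0.578% by 2-fold. Within the brighter 50% (260 probes), where all the members lay, these shares were 1.15% and 2.31%. By 2-fold, 0% of those 260 probes were higher and 0.385%, a single probe, were lower, with 0 of 5 members in either direction. A count of 0 among 5 is near what these shares give, so it does not set the families apart from other probes. The median log2 ratio of the 5 members was −0.08, with 1 above 0 and 4 below. In the brightest 25% the median was −0.03, with 55 probes above 0 and 75 below, and over all 519 it was 0.00.

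Each ratio was set against those of its neighbours, the 100 probes closest in mean log2 intensity. The distance from their median is given in units of their robust SD, which is a median absolute deviation scaled to match an SD. This spread across probes is not a replicate error and holds noise and any treatment effect together. The robust SD around the members ran from 0.16 to 0.21 on the log2 scale. MiR-99a-5p lay at −0.14 robust SDs, miR-100-5p at −0.21, miR-125a-5p at −0.28 and miR-99b-5p at 0.50, all inside the spread of probes of like brightness. MiR-125b-5p lay farther out, at −1.67 robust SDs, and 14 of its 100 neighbours had a lower ratio. Of the 130 probes of the brightest 25%, 20 (15.4%) had a ratio of larger size than that of miR-125b-5p, against 99 (76.2%) for miR-99a-5p. The lower reading of miR-125b-5p thus lay toward the edge of the spread, with other probes beyond it.

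**Figure D3:**
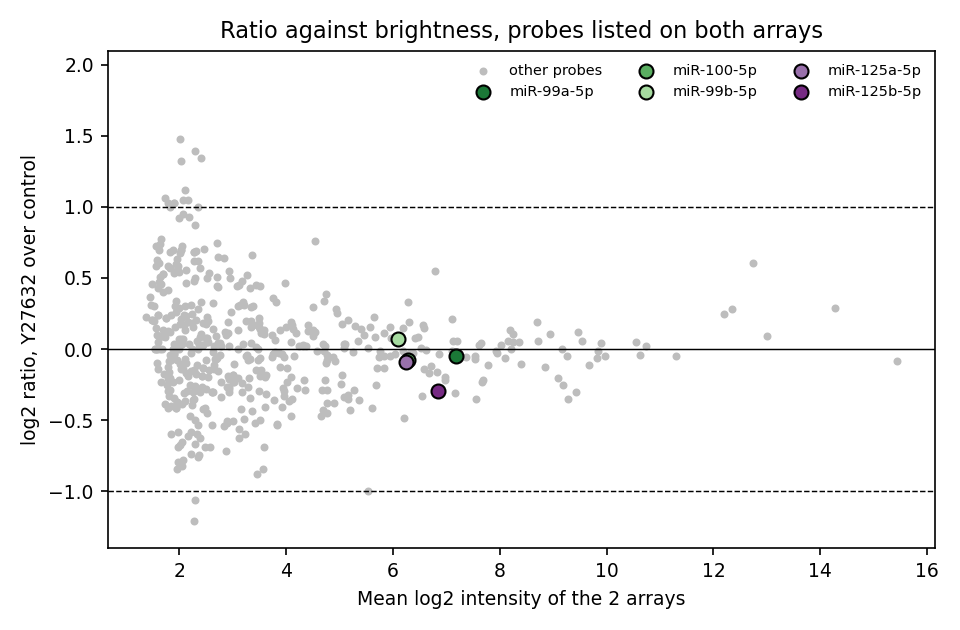
Log2 ratio of Y27632 over control (y axis) against the mean log2 intensity of both arrays (x axis) for the 519 probes listed on both, with the miR-99/100 members in green, the miR-125 members in purple and dashed lines at 2-fold. The 5 members sit to the right of the wide scatter of dim probes, between log2 ratios of −0.29 and 0.07.

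The clusters were then compared through the miR-99/100 member of each, a choice made after seeing the data. These map to 1 gene apiece, as does miR-125a-5p of the chromosome 19 cluster. The log2 ratio was −0.05 for the chromosome 21 cluster (miR-99a-5p), −0.08 for the chromosome 11 cluster (miR-100-5p) and 0.07 for the chromosome 19 cluster (miR-99b-5p). The chromosome 19 member was thus above the others, by 0.15 over miR-100-5p and 0.12 over miR-99a-5p on the log2 scale. With miR-99b-5p and miR-125a-5p averaged, the chromosome 19 cluster was 0.07 above chromosome 11 and 0.04 above chromosome 21. These are unlike sets, since chromosomes 11 and 21 were each represented by their miR-99/100 member alone. Their shared miR-125b-5p, at −0.29, was left out because it cannot be assigned to either. MiR-99a-5p and miR-100-5p, which differ by 1 base, lay 0.03 apart. How far their probes tell them apart was not tested. They may not be independent readings, so this gap cannot be read as agreement between their clusters. For comparison, the difference of 2 independent probes at the median robust SD of 0.19 around the members would have a robust SD of 0.27. The differences of 0.15 and 0.12 between miR-99b-5p and the other miR-99/100 members were smaller than that. The scale was not applied to miR-99a-5p against miR-100-5p. Within the compact chromosome 19 cluster, the log2 ratio was 0.07 for miR-99b-5p and −0.09 for miR-125a-5p. Their difference of 0.16 was also within that scale and close to the largest one between clusters.

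In terms of seeds, the mean log2 ratio was −0.02 over the 3 miR-99/100 members and −0.19 over the 2 miR-125 members, a difference of −0.17. For means over so many members the same calculation gives a robust SD of 0.17, about the size of the difference. It takes the members as independent. This was not tested and may not hold for sequences as close as miR-99a-5p and miR-100-5p, so nothing is concluded from this scale. Within the miR-125 seed, miR-125b-5p was lower than miR-125a-5p by a log2 difference of −0.20. This was smaller than 0.27, the scale for a pair of single probes taken as independent. The difference between the seeds rested largely on miR-125b-5p at −0.29, the lowest member, and partly on miR-99b-5p at 0.07, the highest. MiR-125a-5p at −0.09 was close to miR-100-5p at −0.08 but below the miR-99/100 mean of −0.02.

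The closest pair of members over both arrays crossed the seeds and the clusters. MiR-100-5p and miR-125a-5p lay 0.05 apart (Euclidean distance of both log2 intensities), and 1 probe outside the families was nearer to each of them. MiR-99a-5p and miR-125b-5p, the brightest members, lay 0.51 apart, with 11 such probes nearer to miR-99a-5p and 15 nearer to miR-125b-5p. This distance is over 2 arrays and contains the brightness of each probe, so it does not measure a shared response.

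How the intensities were scaled changed the size of the ratios but not the direction for any of the 5 members. Quantile normalization brought miR-125b-5p to a log2 ratio of −0.20, a lowess fit on brightness to −0.25 and a pseudocount of 3 to −0.29. The lowess fit brought the other dimmer readings closer to 0, miR-99a-5p from −0.05 to −0.01, miR-100-5p from −0.08 to −0.03 and miR-125a-5p from −0.09 to −0.05. MiR-99b-5p stayed above 0, between 0.07 and 0.11.

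**Figure D4:**
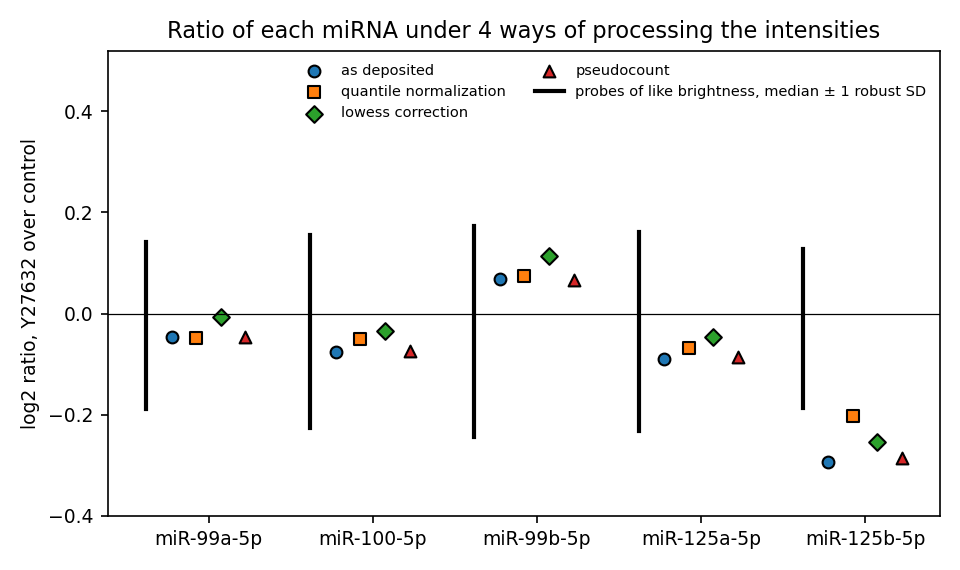
Log2 ratio of Y27632 over control (y axis) for the 5 miRNAs, with 1 marker for each way of processing the intensities and a black bar for the median ± 1 robust SD of the 100 probes nearest in brightness. The markers of 4 miRNAs lie within their bars and those of miR-125b-5p, from −0.29 to −0.20, lie below its bar.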

How the data were processed

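The data were the values of 2 single-colour arrays, 1 of control and 1 of Y27632-treated Huh7 cells. The deposited unit is intensity. A linear scale was inferred from the range of 2.3 to 45829.6. The authors' background correction, normalization and software were not given in any source used here, so scale and centring remain unknown. Values have 1 decimal. Rounding alone moves a member's log2 ratio by at most 0.0021. Empty cells were left out. Groups came from the sample titles. The dose and time come from treatment text that stands on both samples.

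Members were named from the accessions given with their rule. The members and lists were chosen with earlier results of these data known. The let-7 partners, opposite arms, miR-10 relatives and cell type markers (hepatocyte, blood, endothelium, muscle and stroma, neuron) were to be named too, and so was the probe most like each member. None of these was evaluated, because the table gives accessions without names, so likeness was measured among the members. The check of Huh7 against hepatocyte markers was therefore not made.

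Log2 ratios were computed without further normalization. With 1 array per condition there was no test, no p-value and no SD, and 1 array per condition limits the precision. Limits of 1.5-fold and 2-fold were used. Alternatives were median centring, quantile normalization, lowess (fraction 0.4), a pseudocount of 3 (the 10th percentile of listed values, averaged between arrays), other brightness filters, and 50 or 200 neighbours. The neighbour distances were run on simulated log2 ratios with known changes added. Intensities were not simulated, so the ratio step was not exercised. Recovery of the added changes was set by how they were drawn and is no support for the results. Python 3.11.15, numpy 2.4.6, pandas 2.3.3, statsmodels 0.14.6 and matplotlib 3.10.9 were used.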

Additional observations from a re-analysis of the deposited data

How the results depend on the processing

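The log2 ratios of the 5 members and their differences between seeds and clusters kept their direction under median centring, quantile normalization, lowess and the pseudocount. Each ratio moved by less than the robust SD of probes of like brightness, from 0.16 to 0.21. Differences moved by less than the robust SD that this implies for independent members, from 0.17 to 0.27. These limits are loose, since every ratio but that of miR-125b-5p was itself smaller in size than its limit. Median centring changed no value, since the median was already 0.00. The ratio of miR-125b-5p ran from −0.29 to −0.20, and its distance from its neighbours from −1.88 robust SDs with 50 neighbours to −1.19 with 200. The count of members past 1.5-fold or 2-fold was 0 under these settings. The difference between the chromosome 21 and 11 clusters ran from 0.0034 to 0.03. Comparing clusters through their miR-99/100 members alone was chosen after seeing the data. With the mean of miR-99b-5p and miR-125a-5p, which lie on either side of 0, taken for the chromosome 19 cluster, it was 0.07 above chromosome 11 and 0.04 above chromosome 21. In the background, the brighter 50% held 0 probes at least 2-fold higher and 1 lower. Quantile normalization, lowess and the pseudocount each left 0 lower, no filter on dim probes gave 13 higher and 3 lower, and a 1.5-fold limit gave 3 higher and 6 lower, by construction of a wider set or a lower limit. Over all 519 probes the pseudocount reduced the counts past 1.5-fold from 46 higher and 28 lower to 10 and 5, while the counts at least 2-fold higher fell from 13 to 5 with quantile normalization, 8 with lowess and 0 with the pseudocount, which also took those at least 2-fold lower from 3 to 0. The cause of the shifts with scaling was not tested. Alternatives for the let-7 partners were not run, because their rows could not be named. Leaving out a replicate would have left no array of that condition. No paired analysis was possible because the 2 arrays are single samples of different conditions.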
